A study of Mus musculus with 20 samples.

Results

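Myosin heavy chains and natriuretic peptides were followed in whole hearts of mouse fetuses through 4 genes, Myh6, Myh7, Nppa and Nppb. They are 4 of 8251 gene symbols that the platform annotation gives to the array, and 5 of its 12488 probe sets carry them: 1 each for Myh6, Nppa and Nppb and 2 for Myh7. All probe sets with a member symbol were taken, whatever their values, and all 5 passed the filter on dim probe sets. The RNA was hybridised to 20 one-colour Affymetrix arrays. Dams received by oral gavage on gestation day 14.5 either corn oil (8 control arrays) or TCDD at 1.5, 3 or 6 µg/kg (4 arrays each), and hearts were collected on day 17.5. TCDD is a dioxin that binds the aryl hydrocarbon receptor (AhR). The label of array 1 at 1.5 µg/kg writes another treatment day, with the decimal point moved. No strain, fetal sex or pooling is given in the labels, which also do not say that arrays came from separate litters, so each p-value measures only the spread between these arrays.

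Myh6 and Myh7 encode the alpha and beta heavy chains of cardiac myosin, the motor of the sarcomere. In the mouse the slower beta chain dominates the ventricle before birth, the faster alpha chain is made in the atria throughout, and thyroid hormone shifts the ventricle towards the alpha chain around birth. Nppa and Nppb encode the precursors of atrial and B-type natriuretic peptide, hormones that act through a receptor guanylyl cyclase to lower blood volume and pressure. Both are made in the fetal heart, fall in the ventricle after birth and are classical markers of a loaded or hypertrophic heart muscle. Myh6 and Myh7 are neighbours on chromosome 14 with 0 protein-coding genes between them in the RefSeq table, and Nppb and Nppa are neighbours on chromosome 4 with 0 between them.

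Sequence upstream of the start sites is shown because factors that switch these genes on are known to bind there, and because the treatment acts through a DNA-binding receptor. The windows are the 250 bases before each start in the RefSeq promoter table of GRCm38.p6, written 5′ to 3′ on the gene's strand. They are chr14:54966608-54966857 (minus strand) for Myh6, chr14:54994627-54994876 (minus strand) for the outer of the listed starts of Myh7, chr4:148000472-148000721 (plus strand) for Nppa and chr4:147985650-147985899 (plus strand) for Nppb. The starts of Nppa and of the outer Myh7 window are the outer ends of those genes. The start used for Nppb lies 114 bases inside the listed gene and that for Myh6 1410 bases inside it, so the Myh6 window and part of the Nppb window lie inside the listed gene. Nppa and Myh7 are printed whole, and of Nppb and Myh6 a stretch with motif matches (for Nppb those of the GATA and TEAD elements), chr4:147985795-147985821 and chr14:54966799-54966822. Capitals mark the matches.
Myh7: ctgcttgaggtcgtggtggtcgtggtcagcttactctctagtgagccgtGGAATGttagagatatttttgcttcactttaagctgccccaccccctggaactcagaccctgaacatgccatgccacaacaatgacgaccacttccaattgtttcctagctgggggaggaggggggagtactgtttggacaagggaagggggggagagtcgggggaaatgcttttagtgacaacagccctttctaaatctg
Nppa: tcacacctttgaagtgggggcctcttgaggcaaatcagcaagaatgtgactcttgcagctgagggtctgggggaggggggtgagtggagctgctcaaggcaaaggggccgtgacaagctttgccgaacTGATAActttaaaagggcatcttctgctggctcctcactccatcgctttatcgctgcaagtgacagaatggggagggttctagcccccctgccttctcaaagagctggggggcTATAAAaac
Nppb: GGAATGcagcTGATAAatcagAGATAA
Myh6: tggggaggaGGAATGtgcccaagg

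Both strands of the windows were searched for exact matches only. The motifs were GCGTG (the core of the AhR response element), TATAAA (a form of the TATA box), and AGATAA and TGATAA (forms of the GATA factor site). The others were GGAATG (the core of the element bound by TEAD factors) and the CArG box of serum response factor. The CArG box was taken as CC, then 6 bases of A or T, then GG. Nppb held TATAAA at positions -31 to -26, AGATAA at -84 to -79, TGATAA at -95 to -90 and GGAATG at -105 to -100, where -1 is the base before the start. Nppa held TATAAA at -9 to -4 and TGATAA at -122 to -117. Myh6 held GGAATG at -206 to -201 and Myh7 held it at -201 to -196. All matches lay on the gene's strand and none overlapped another. Of 32851 promoter windows of the same length, 28.2% held GCGTG, 12.4% TATAAA, 9.99% AGATAA, 7.94% TGATAA, 12.6% GGAATG and 1.47% the CArG box. GCGTG and the CArG box had 0 matches in these 4 windows and in that of the inner Myh7 start, which had 0 matches of any of the 6 motifs. Sites that depart from these patterns were not searched for, so 0 matches does not mean that a TATA box or a factor site is absent.

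All 4 genes were strongly expressed. Signals are MAS5 values scaled to a common trimmed mean of 500, and differences between groups are on the log2(signal + 32) scale. The bright Myh7 probe set ranked between 1 and 5 from the brightest of 12422 probe sets on every array, and Myh6 between 31 and 72. Nppb ranked between 146 and 357 and Nppa between 206 and 322. The dim Myh7 probe set ranked between 2116 and 6936. Probe sets differ in how well they bind, so these ranks do not compare amounts of the 4 mRNAs. Tnnt2, the cardiac troponin T gene from the list of cardiomyocyte markers, averaged 17819 in controls. The control means of the measured genes of that list ran from 278 for Actn2 to 19139 for Actc1. Of 13 skeletal muscle genes on the array 7 lay below the filter, and the 6 others summed to 808 to 1024 in controls and to 691 to 1135, 633 to 969 and 876 to 1217 from low to high dose. In whole hearts, fewer cells of a type and less RNA per cell cannot be told apart.

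None of the 5 probe sets changed at any dose by the limma test adjusted over all 8097 kept probe sets. Myh6 came nearest: its log2 signal was lower by -0.23 at 1.5 µg/kg and -0.22 at 3 µg/kg, and the other members moved by less or varied more between arrays. At 1.5 µg/kg 0 of 5 probe sets passed (adjusted p 0.239 to 0.88), where 0.21% of all probe sets passed. At 3 µg/kg 0 of 5 passed (0.728 to 0.997), where 0.0247% of all did. At 6 µg/kg 0 of 5 passed (0.746 to 0.921), where 0.0741% of all did. At an unadjusted p under 0.05 stood 1 of 5 at 1.5 µg/kg, 1 of 5 at 3 µg/kg and 0 of 5 at 6 µg/kg, and both times it was Myh6. These counts turned on single arrays and settings. That at 1.5 µg/kg was 2 without array 3 of the dose, where bright Myh7 joined Myh6. It was also 2 without control 5 or control 8, where Nppb joined Myh6. Nppb did so too with the replicate number as a block, with only the compared groups in the fit and with controls 1 to 4 alone. The count at 6 µg/kg was 1 without array 3 of the dose. Of all probe sets 12.6%, 5.72% and 9.15% had an unadjusted p under 0.05 at these doses.

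**Figure D1:**
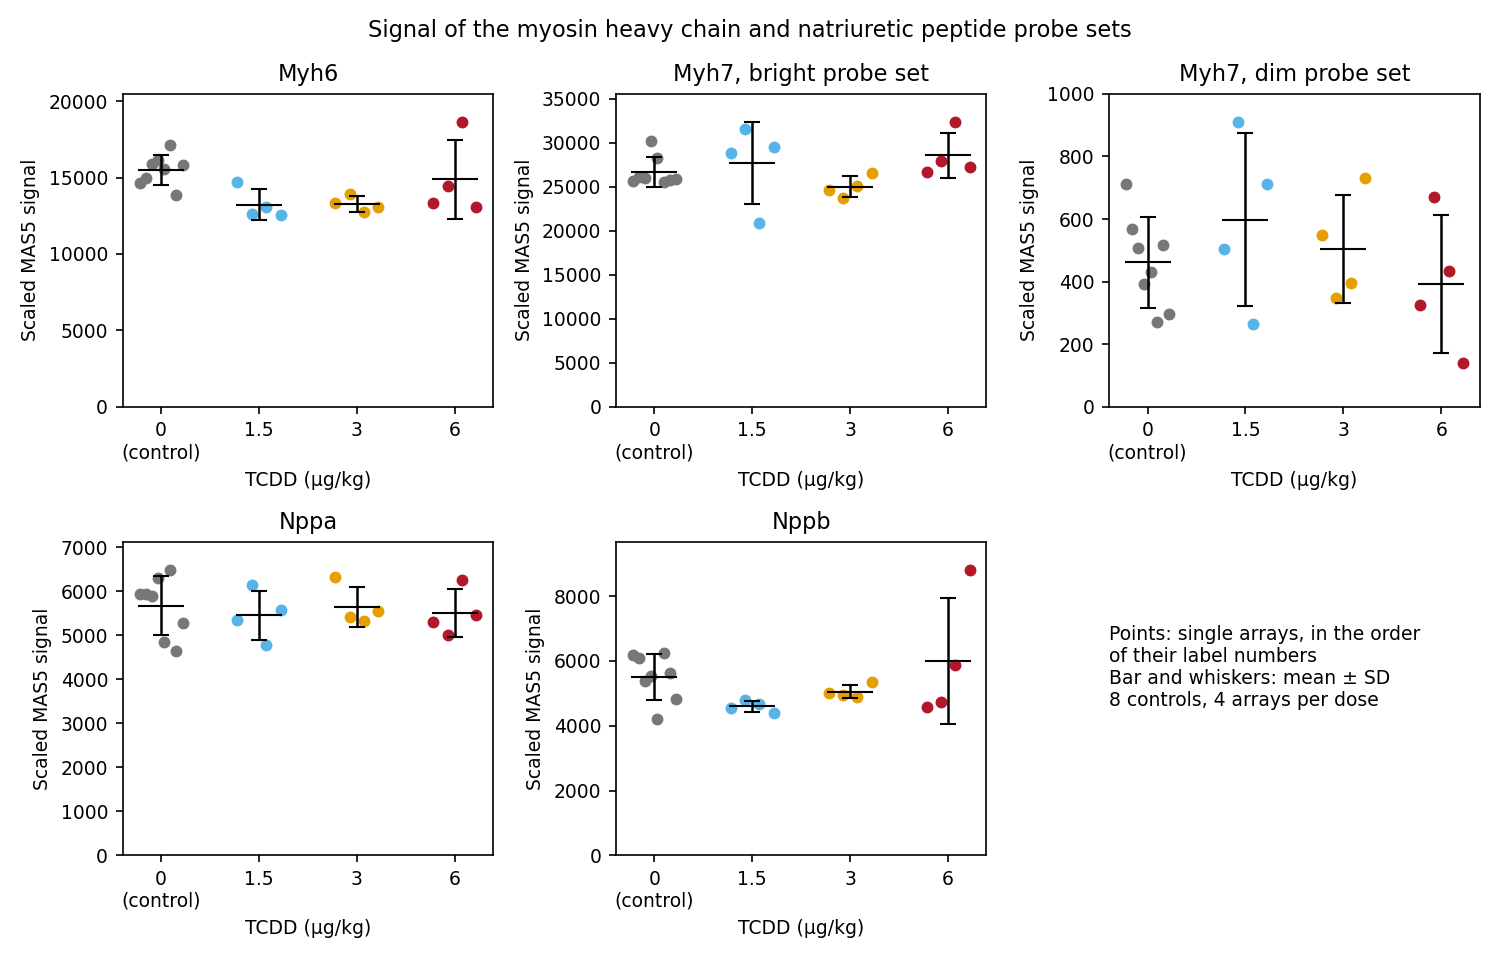
Scaled MAS5 signal (linear axis from 0) of each probe set on each array against dose in µg/kg, with points for arrays and a bar for the mean ± SD (8 controls, 4 arrays per dose). Myh6 averaged 13232 at 1.5 µg/kg and 13263 at 3 µg/kg, below its control mean of 15500, while Nppa means lay between 5456 and 5663 in all 4 groups.

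Myh6 had signals of 14678, 12593, 13075 and 12582 on arrays 1 to 4 at 1.5 µg/kg, against a lowest of 13853, a median of 15668 and a highest of 17127 in the 8 controls. The 3 µg/kg arrays had 13339, 13918, 12740 and 13057. In both groups 3 of 4 arrays lay below every control and the remaining array lay inside the control range, so the groups overlapped. Over all probe sets, 3.05% had at least 3 of 4 arrays below every control at 1.5 µg/kg and 1.82% had so at 3 µg/kg. At 6 µg/kg the signals were 13357, 14465, 18634 and 13093: array 3 was the highest of the whole series and 2 arrays lay below every control.

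Myh6 averaged 15500 ± 999.8 in controls (SD, n = 8). From low to high dose the means were 13232 ± 991, 13263 ± 500, and 14887 ± 2567 (SD, n = 4 per dose). The order of the levels was controls, 6, 3 and 1.5 µg/kg, and no neighbours in that order differed beyond their spread. The log2 change was -0.23 ± 0.08 (SE; limma adjusted p = 0.239) at 1.5 µg/kg with a 95% interval of -0.40 to -0.06. It was -0.22 ± 0.08 (adjusted p = 0.728) at 3 µg/kg with an interval of -0.39 to -0.05, and -0.07 ± 0.08 (adjusted p = 0.803) at 6 µg/kg with an interval of -0.24 to 0.10. Single arrays set this last value: it was -0.18 without array 3 (adjusted p = 0.657), -0.02 without array 1 and -0.01 without array 4. Each of these 3 values stayed negative when either set of 4 controls, numbers 1 to 4 or 5 to 8, was used by itself.

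Lung epithelial transcripts, which mark neighbouring tissue, had higher median sums at the doses at which Myh6 was lower. The 3 measured of 8 listed lung genes had a median sum of 947 in controls (range 209 to 2766). From low to high dose the medians were 1682 (578 to 3754), 3081 (284 to 4448) and 668 (261 to 3751), so the ranges overlapped, and 0 of these genes passed the test. At 3 µg/kg the log2 changes were 1.35 for Scgb1a1, 1.23 for Sftpb and 1.16 for Sftpc (limma adjusted p = 0.779, 0.788 and 0.937). Of these 3 genes 2 had an unadjusted p under 0.05 at this dose, beside 5.72% of all probe sets, and 0 had so at 1.5 or 6 µg/kg. The 3 measured of 7 liver genes also had higher median sums, 853 (616 to 2567), 836 (710 to 1017) and 1022 (430 to 1170) from low to high dose, where controls had 543 (265 to 1219). Alb, the albumin gene, was the brightest of these and was at a log2 change of 1.03 at 1.5 µg/kg (limma adjusted p = 0.336). The part of lung and liver RNA in the Myh6 values was not tested. The 7 measured of 9 cardiomyocyte markers had a median sum of 94323 in controls and of 99174, 89445 and 98597 from low to high dose, and 0 of them passed the test.

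**Figure D2:**
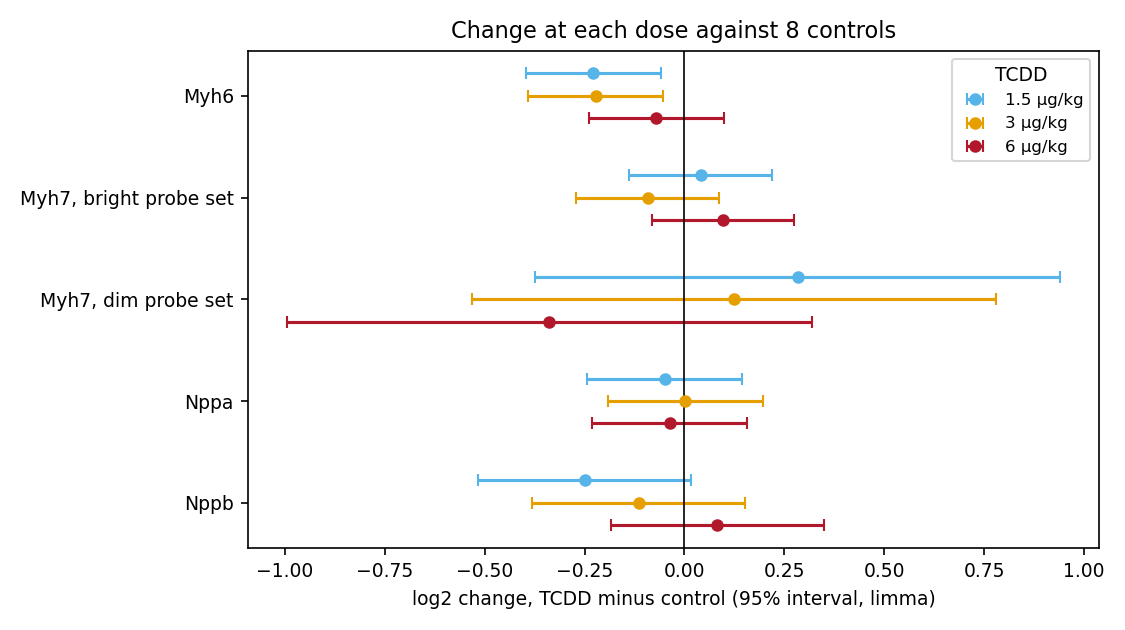
log2 change at each dose minus the 8 controls (x axis) with its 95% interval from limma, for the 5 probe sets (rows) at 1.5, 3 and 6 µg/kg. The Myh6 intervals at 1.5 and 3 µg/kg lie below 0 before adjustment over all probe sets; those of the other probe sets span 0.

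Myh7 was read by a bright and a dim probe set. The bright one had signals of 28883, 31609, 20925 and 29475 on arrays 1 to 4 at 1.5 µg/kg, against a lowest of 25491, a median of 25955 and a highest of 30159 in controls. Array 3 at 1.5 µg/kg was the lowest of the series and array 2 lay above every control. At 3 µg/kg it had 24593, 23719, 25116 and 26556, of which 3 lay below every control, as did at least 3 of 4 arrays for 1.82% of all probe sets. At 6 µg/kg it had 26699.7, 27980, 32363 and 27198, of which array 3 lay above every control. The log2 changes were 0.04 ± 0.09, -0.09 ± 0.09 and 0.10 ± 0.09 (SE) from low to high dose, with limma adjusted p-values of 0.88, 0.945 and 0.746. The 95% intervals were -0.14 to 0.22, -0.27 to 0.09 and -0.08 to 0.28. Without array 3 the value at 1.5 µg/kg was 0.17 (adjusted p = 0.252), and without array 2 it was -0.03. Without array 3 the value at 6 µg/kg was 0.04. With quantile normalization the values at 3 and 6 µg/kg turned to 0.01 and -0.03.

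The dim Myh7 probe set spread far more widely. It had 503.7, 909.9, 265.5 and 712.7 at 1.5 µg/kg and 548.6, 349.0, 394.6 and 730.0 at 3 µg/kg. The 6 µg/kg arrays had 324.7, 668.7, 435.3 and 138.8, against a lowest of 272.5, a median of 468.3 and a highest of 711.1 in controls. Its highest signal was 6.56 times its lowest over the series, where the bright probe set spanned 1.55 times. The log2 changes were 0.28, 0.12 and -0.34, each with an SE of 0.32, and the limma adjusted p-values were 0.755, 0.994 and 0.759. An interval of -0.37 to 0.94 at 1.5 µg/kg shows how little this probe set bounds the change of Myh7. Without single arrays the value at 1.5 µg/kg lay between 0.05 and 0.60, and that at 6 µg/kg was 0.04 without array 4.

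The Myh7 probe sets were compared array by array after each group's mean was subtracted. Over 20 arrays Pearson's r was 0.52 (permutation p = 0.0179, adjusted p = 0.179 over the 10 pairs of member probe sets) and Spearman's rho was 0.52 (permutation p = 0.0206, adjusted p = 0.11). Without the 2 arrays farthest from the median of the bright probe set, arrays 2 and 3 at 1.5 µg/kg, r was 0.25, so the relation rested on those arrays. The bright minus the dim log2 signal ran from 5.11 to 6.39 in controls and from 5.07 to 6.14, 5.12 to 5.96 and 5.32 to 7.32 from low to high dose. The name of each of these probe sets carries the maker's suffix for probes shared by a gene family, so signal from related myosin genes cannot be told apart from that of Myh7 here.

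The bright Myh7 probe set followed the brightest probe sets of its array. Its deviations from the group means were set against those of the mean log2 signal of the 50 brightest probe sets of other genes, a comparison chosen after the values were seen. Pearson's r was 0.94 over 20 arrays (permutation p = 1e-05, the smallest the resamples can give, adjusted p = 5e-05 over 5 members) and Spearman's rho was 0.77 (permutation p = 0.00012, adjusted p = 6e-04). It was 0.87 without the 2 arrays farthest from the median, array 3 at 1.5 µg/kg and array 3 at 6 µg/kg. Of these 50 probe sets 9 carry a symbol of the cardiomyocyte, atrial or ventricular lists. Relative to their mean, Myh7 averaged 0.59 ± 0.05 in controls (SD, n = 8) and 0.63 ± 0.07, 0.57 ± 0.01 and 0.60 ± 0.06 from low to high dose (SD, n = 4 per dose). The same correlation was 0.28 for Myh6 (permutation p = 0.223, adjusted p = 0.279), 0.53 for Nppa (0.0153 and 0.0384), 0.18 for Nppb (0.437 and 0.437) and 0.35 for the dim Myh7 probe set (0.126 and 0.21). Spearman's rho was 0.16, 0.45, 0.25 and 0.14 in that order (permutation p = 0.49, 0.0478, 0.294 and 0.552; adjusted p = 0.552, 0.12, 0.49 and 0.552). Without the same 2 arrays r was 0.07, 0.37, 0.27 and 0.08, so the Nppa relation rested in part on those arrays.

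**Figure D3:**
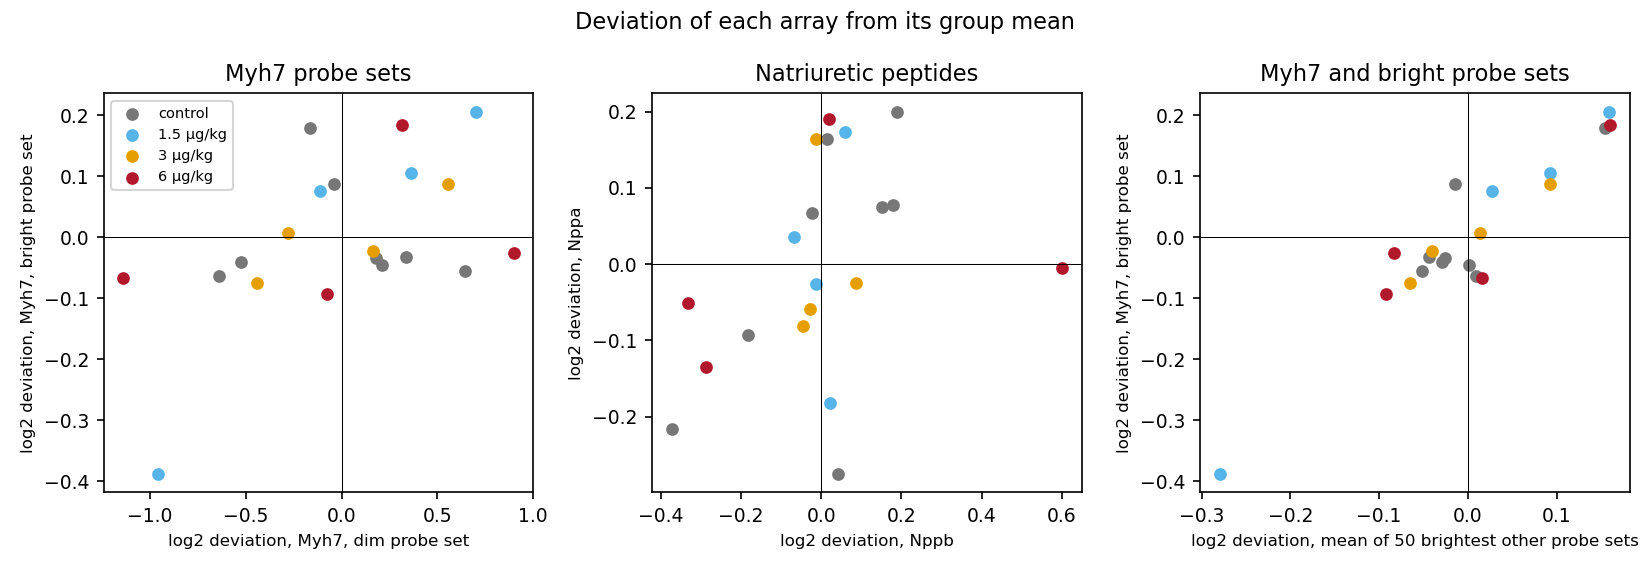
Deviation of each array from its group mean on the log2 scale, for the bright against the dim Myh7 probe set (left), Nppa against Nppb (middle) and bright Myh7 against the mean of the 50 brightest probe sets of other genes (right); points are arrays, coloured by group. The right panel is the tight one (r = 0.94), and array 3 at 1.5 µg/kg lies lowest in it; the left panel has r = 0.52 and the middle one r = 0.38.

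The ratio of Myh6 to Myh7 was taken on each array as the log2 signal of Myh6 minus that of the bright Myh7 probe set. Its level cannot be read, since each probe set has its own brightness. Its differences between arrays carry the limits of the bright Myh7 probe set. Signal from related myosin genes cannot be told apart in that probe set. It also followed the 50 brightest probe sets at a Pearson's r of 0.94, where Myh6 had 0.28. The ratio was -0.97, -1.33, -0.68 and -1.23 at 1.5 µg/kg, against a lowest of -0.90, a median of -0.80 and a highest of -0.57 in controls. The 3 µg/kg arrays were at -0.88, -0.77, -0.98 and -1.02, and at 6 µg/kg it was -0.998, -0.95, -0.80 and -1.05. The ratio was below every control on 3 of 4 arrays at 1.5 µg/kg, 2 of 4 at 3 µg/kg and 3 of 4 at 6 µg/kg, and the groups overlapped at each dose. How often ratios of other probe sets do so was not computed.

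The mean Myh6 to Myh7 ratio was lower than in controls by a log2 difference of -0.27 at 1.5 µg/kg (-1.05 ± 0.29, SD, n = 4, against -0.78 ± 0.11, SD, n = 8). The two-sided exact permutation p was 0.0444, and 0.125 adjusted over 6 ratio tests. The difference was -0.13 at 3 µg/kg (exact permutation p = 0.097, adjusted 0.145) and -0.17 at 6 µg/kg (0.0444 and 0.125). None passed after adjustment, and the smallest p the 495 splits allow is 0.00202. With quantile normalization the differences were -0.17, -0.18 and -0.10 from low to high dose. The value at 1.5 µg/kg depended on arrays 2 and 3 of the dose. Without array 3 the difference was -0.39 and passed (exact permutation p = 0.00606, adjusted 0.0364), and without array 2 it was -0.18 (exact permutation p = 0.164, adjusted 0.264). Array 3 had the lowest bright Myh7 signal and the lowest mean of the 50 brightest probe sets, 13.83 where the other 19 arrays had 13.97 to 14.36. Against the dim Myh7 probe set the Myh6 ratio averaged 5.03 ± 0.51 in controls (SD, n = 8) and 4.52 ± 0.76, 4.68 ± 0.47 and 5.30 ± 0.77 from low to high dose (SD, n = 4 per dose). At 6 µg/kg the mean lay on opposite sides of controls with the bright and the dim probe set. The ratios to the dim probe set at this dose were 5.23, 4.37, 5.32 and 6.26. The last, array 4, lay above every control and had the lowest dim Myh7 signal of the series, 138.8, so this difference in side leaned on that array.

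**Figure D4:**
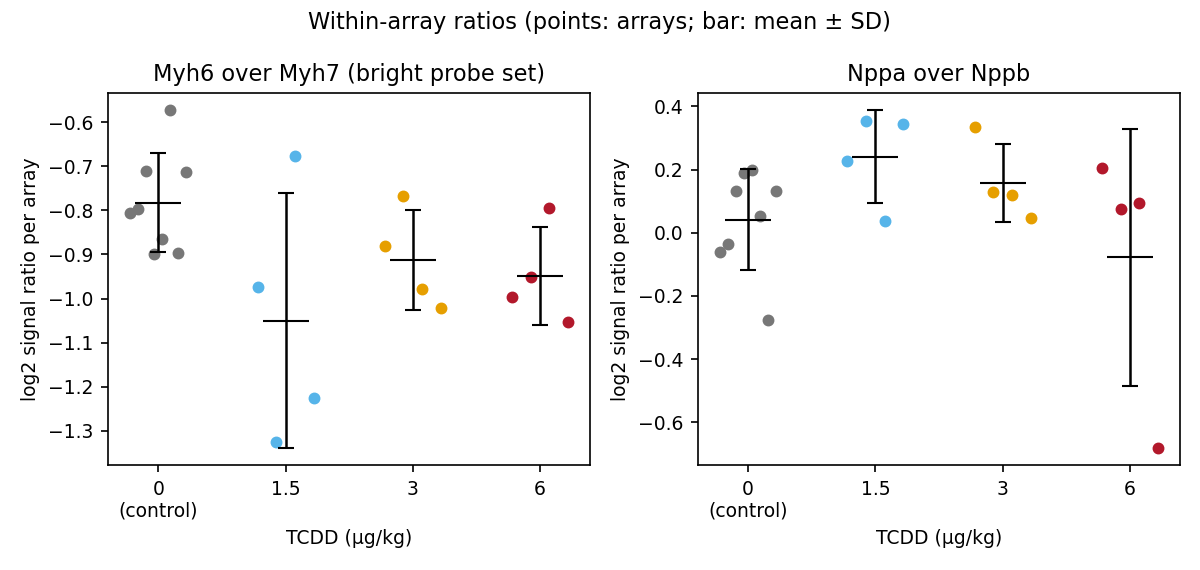
log2 signal ratio on each array (y axis) of Myh6 over the bright Myh7 probe set (left) and of Nppa over Nppb (right) against dose in µg/kg; points are arrays and bars the mean ± SD. At 1.5 µg/kg array 3, at -0.68, stands above the other 3 arrays on the left, and at 6 µg/kg array 4, at -0.68, stands below all others on the right.

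Nppa, the atrial natriuretic peptide gene, held the narrowest range of the 5 probe sets, with a highest signal 1.39 times the lowest. It had 5335, 6132, 4787 and 5571 at 1.5 µg/kg, against a lowest of 4644, a median of 5914 and a highest of 6469 in controls. The 3 µg/kg arrays had 6320, 5409, 5325 and 5539, and at 6 µg/kg 5291, 4994, 6261 and 5467. All 12 TCDD arrays lay inside the control range. The log2 changes were -0.05, 0.00 and -0.04, each with an SE of 0.09, and the limma adjusted p-values were 0.86, 0.997 and 0.921. The 95% intervals were -0.24 to 0.14, -0.19 to 0.20 and -0.23 to 0.16, and the values changed sign with the controls chosen: at each dose the sign was positive with controls 5 to 8 as the only baseline and negative with controls 1 to 4.

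Nppb, the B-type natriuretic peptide gene, had 4552, 4792, 4663 and 4384 at 1.5 µg/kg, against a lowest of 4214, a median of 5579 and a highest of 6237 in controls. All 4 arrays lay in the lower part of the control range and none below it. On the 3 µg/kg arrays they were 5005, 4948, 4895 and 5361. On the 6 µg/kg arrays they were 4590, 4739, 5867 and 8794, and array 4 was the highest of the series. The log2 changes were -0.25 ± 0.13, -0.11 ± 0.13 and 0.08 ± 0.13 (SE), with limma adjusted p-values of 0.434, 0.961 and 0.856. The 95% intervals were -0.52 to 0.02, -0.38 to 0.15 and -0.18 to 0.35. The change at 1.5 µg/kg was -0.33 with controls 1 to 4 as the only baseline and -0.17 with controls 5 to 8.

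Array 4 set the direction for Nppb at 6 µg/kg, where the log2 change without it was -0.12. The same array had the lowest signal of the dim Myh7 probe set and a β-actin 3′ to middle log2 ratio of 1.02, where the 3 other arrays of the dose had 0.41 to 0.51. Controls 1, 2 and 6 had 1.18, 1.33 and 0.89 and all other arrays 0.61 or less, and these controls had the 3 highest Nppb signals among controls, 6194, 6079 and 6237. The other ratios of such control probe sets did not set these 4 arrays apart. Their β-actin 3′ to 5′ log2 ratios were 0.281 on array 4 and 0.252, 0.40 and 0.309 in the 3 controls, within 0.173 to 0.697 over all arrays. Their GAPDH 3′ to middle log2 ratios were -0.277 on array 4 and -0.269, -0.163 and -0.27 in the 3 controls, within -0.553 to -0.082 over all arrays. Without these 4 arrays, a choice made after the values were seen, the Nppb changes were -0.14, -0.01 and -0.01 (limma adjusted p = 0.452, 0.984 and 0.984). With the β-actin 3′ to middle ratio as a covariate, which was planned, they were -0.12, 0.02 and 0.14 (limma adjusted p = 0.647, 0.971 and 0.708). At 6 µg/kg these settings moved the value in opposite directions from the 0.08 of the main fit. The part of RNA quality in the Nppb values was not tested.

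The ratio of Nppa to Nppb, as a log2 difference, was 0.23, 0.35, 0.04 and 0.34 at 1.5 µg/kg, against a lowest of -0.28, a median of 0.09 and a highest of 0.20 in controls, so 3 of 4 arrays lay above every control. For this ratio too the share over ratios of other probe sets was not computed. On the 3 µg/kg arrays the Nppa to Nppb ratio was 0.33, 0.13, 0.12 and 0.05, and at 6 µg/kg 0.20, 0.08, 0.09 and -0.68. The differences from controls in the mean were 0.20, 0.12 and -0.12 from low to high dose, with two-sided exact permutation p-values of 0.0626, 0.251 and 0.547, and 0.125, 0.301 and 0.547 adjusted over the 6 ratio tests. Without array 4 at 6 µg/kg the last was 0.08, and without array 1 at 3 µg/kg the middle one was 0.06. Within groups Nppa and Nppb had a Pearson's r of 0.38 (permutation p = 0.0964, adjusted 0.241) and a Spearman's rho of 0.51 (permutation p = 0.022, adjusted 0.11) over 20 arrays, and r was 0.41 without the 2 arrays farthest from the median of Nppa. None of the 10 pairs of member probe sets passed after adjustment.

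Among the doses, 0 of 5 probe sets passed between 6 and 1.5 µg/kg (where 0.346% of all did), between 6 and 3 µg/kg (0.0371%) or between 3 and 1.5 µg/kg (0%) by limma. These comparisons held 1, 0 and 0 of the 5 at an unadjusted p under 0.05, against 15.6%, 11.6% and 2.79% of all. The 1 was Nppb, higher at 6 than at 1.5 µg/kg by 0.33 ± 0.15 (SE; adjusted p = 0.283). The joint F test of the 3 doses passed 0 of 5 (0.185% of all), with 1 of 5 unadjusted (12.5% of all), Myh6 at an adjusted p of 0.307. The linear trend passed 0 of 5 (0.0618% of all), with 0 of 5 unadjusted (7.22% of all). Over the 12 TCDD arrays alone the Nppb slope was 0.07 per µg/kg (limma adjusted p = 0.242), where it was 0.01 with controls. Without array 3 at 6 µg/kg the Myh6 slope was -0.03 (adjusted p = 0.859), where it was -0.01 with it. The slopes per µg/kg ran from -0.05 for the dim Myh7 probe set to 0.01 for Nppb. Controls 1 to 4 against controls 5 to 8 gave 0 of 5 (1.57% of all) and 0 of 5 unadjusted (14.9% of all), with Nppa at 0.19 and the dim Myh7 probe set at 0.50 as log2 differences.

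The genes that vary most like a member within groups were described by Pearson's r over 20 arrays, across all kept probe sets. For the bright Myh7 probe set they were Myl2, the ventricular regulatory light chain (r = 0.95), Tpt1 (0.92) and Tnni1, the slow troponin I of the fetal heart (0.89). Their mean signals, 22848, 21686 and 25333, are also among the brightest. For Myh6 they were Dlgap5 (0.75), Lgals3bp (0.72) and Gbp3 (0.70), with mean signals of 208.7 to 274.8. For Nppa they were Cdc123 (0.80), Aup1 (0.80) and Cox5b (0.80), with mean signals of 776, 1213 and 9699. For Nppb they were Fibp (0.89), Pnp (0.85) and Slfn2 (0.85), with mean signals of 472, 936 and 135. Nppb deviated most from its group mean on array 4 at 6 µg/kg, by 0.60, and r without that array was not computed. All these r are the highest over the kept probe sets and have no p.

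All 4 genes are known to differ between atrium and ventricle, so markers of the chambers were summed on each array. The 9 measured of 12 atrial markers had a median sum of 32366 in controls (29075 to 37160). From low to high dose it was 31454 (27994 to 32712), 31210 (28641 to 32189) and 32885 (31806 to 35105). The atrial light chains Myl7 and Myl4 had log2 changes of -0.04, -0.09 and 0.07 and of -0.15, -0.10 and -0.02 from low to high dose. Other atrial markers went both ways. At 6 µg/kg Kcna5 was at -0.39 (limma adjusted p = 0.244) and Nr2f2 at 0.55 (0.357). Bmp10, which was dim, was at -0.40, -0.29 and -0.32 from low to high dose. The 5 measured of 8 ventricular markers had a median sum of 55635 in controls (54709 to 58240), and of 61302 (44837 to 63244), 51284 (48663 to 55419) and 59339 (55630 to 69867) from low to high dose. None of the 9 atrial or 5 ventricular genes passed at any dose by limma, and the part of the chambers in the member values was not tested.

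Of 14 listed genes that process and sense the natriuretic peptides 9 were on the array and 4 above the filter. Of these 4, 0 passed the test at any dose by limma and 0 had an unadjusted p under 0.05. Over all probe sets 12.6%, 5.72% and 9.15% had such a p from low to high dose, so 0 of 4 says little about this list. Corin, the protease that activates the atrial peptide, was at a signal of 799 at 1.5 µg/kg, against 988 in controls (log2 -0.31 ± 0.15, SE; limma adjusted p = 0.408). At 3 µg/kg it was at -0.22 and at 6 µg/kg at 0.06. Npr3, the clearance receptor, was at -0.32 at 6 µg/kg (adjusted p = 0.586). Furin, a protease that cleaves the B-type precursor, was at 0.10 at each dose, and Ide, an insulin and peptide protease, at -0.05, -0.03 and -0.21 from low to high dose.

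Of 31 listed regulators of the 4 genes 19 were measured, and 0 of 19 passed at any dose. At 1.5 µg/kg 15 of 19 lay above controls with a median log2 change of 0.26, beside 0.01 over all kept probe sets, and 6 were higher and 1 lower at an unadjusted p under 0.05. At 3 µg/kg 16 of 19 lay above with a median of 0.11, beside 0.00 over all, and 1 was higher unadjusted. At 6 µg/kg 10 of 19 lay above with a median of 0.01, beside 0.00 over all, and 3 were higher unadjusted. Over all kept probe sets 48.1%, 48.8% and 50.3% lay below controls from low to high dose. Unadjusted limma p was under 0.05 for 12.6%, 5.72% and 9.15% of all. The list holds repressors such as Tbx2 and Pura beside activators, so its counts have no single direction. The smallest p at 1.5 µg/kg belonged to the heart helix-loop-helix factors Hand2 (log2 0.47, limma adjusted p = 0.194) and Hand1 (0.71; 0.224) and to the muscle enhancer factor Mef2a (0.48; 0.23). At 3 µg/kg it belonged to Tbx2 (0.52; 0.707), a repressor of chamber genes that include Nppa, to Mef2a (0.34; 0.859) and to the retinoid receptor Rxra (0.41; 0.875). At 6 µg/kg it belonged to the atrial factor Nr2f2 (0.55; 0.357), to Pura (0.27; 0.513), a single-strand DNA-binding repressor of Myh6, and to Dio2 (0.31; 0.516), the enzyme that activates thyroid hormone.

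Genes linked to load and hypertrophy gave 0 of 19 calls at each dose. The list mixes genes known to rise in the loaded heart with some known to fall there, such as the calcium pump gene Atp2a2, so its counts have no single direction. Of 24 listed, 19 were measured, and 6, 7 and 13 lay above controls from low to high dose with median log2 changes of -0.03, -0.06 and 0.08. Unadjusted p was under 0.05 for 1 higher and 1 lower gene at each of the lower doses, and for 1 higher gene and 0 lower at 6 µg/kg. Of all probe sets 12.6%, 5.72% and 9.15% had such a p from low to high dose. Ankrd1, a stretch-responsive nuclear cofactor, was at -0.18 at 3 µg/kg and 0.15 at 6 µg/kg. Fhl1, a LIM protein of hypertrophic muscle, was at 0.15 at 1.5 µg/kg and 0.21 at 3 µg/kg (limma adjusted p = 0.391 and 0.707), and Ryr2, the calcium release channel, at -0.20 at 1.5 µg/kg (adjusted p = 0.357). Edn1, the endothelin precursor gene, was at 0.41 at 6 µg/kg (0.451), and Actc1, cardiac actin, at 0.14 (0.598). The slow troponin I gene Tnni1 was at -0.19 at 3 µg/kg (0.887), and Rcan1, a calcineurin inhibitor, at -0.21 at 1.5 µg/kg (0.403).

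Of 11 other myosin heavy chain genes 9 were on the array and 4 above the filter, and 0 passed at any dose by limma. Unadjusted p was under 0.05 for 0 at 1.5 and 3 µg/kg (12.6% and 5.72% of all probe sets). At 6 µg/kg it was so for 1, beside 9.15% of all probe sets, and that was Myh4. This fast skeletal chain was dim, with a signal of 231 at 6 µg/kg, against 143 in controls (log2 0.71 ± 0.28, SE; adjusted p = 0.473). The non-muscle chain Myh9 was at 0.45, 0.26 and 0.70 from low to high dose with an SE of 0.37, and Myh14, also non-muscle, at 0.47, 0.47 and 0.41 with an SE of 0.32. Myh11, the smooth muscle chain, was at 0.36, 0.02 and -0.14.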

How the data were processed

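The deposited values are 1 linear intensity per probe set and array, the MAS5 signal, per the submitters' processing notes, which give no version. The 2% trimmed mean of the deposited signal was 500.28 to 500.341 on every array, and correlations between arrays were 0.957 to 0.986.

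Arrays were scaled to a trimmed mean of 500, 66 AFFX controls were left out, and log2(signal + 32) was taken. Probe sets at or above their array's 40th percentile on at least 4 arrays were kept, 8097 of 12422. The platform annotation gives 1 symbol to 10833 probe sets, several to 396 and none to 1193. All 4 members matched RefSeq (GRCm38.p6), which gave the promoters.

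All 20 arrays entered 1 limma fit (limma 3.58.1, R 4.3.3; eBayes with an intensity trend), tested on simulated data, with p adjusted by Benjamini-Hochberg over all kept probe sets and a threshold of 0.05. Ratios were tested by exact permutation and correlations with 100000 permutations, all two-sided; the number of arrays limits the precision. All 5 member probe sets are named, and of the context lists the genes among the 3 smallest p at any dose, each by its brightest kept probe set. Of the cell type markers only some are named. The members, lists and tests were chosen with earlier results of these data known. Alternatives were the scaling, the pseudocount, the filter, either set of 4 controls, the replicate number as a block, the β-actin ratio as a covariate, the variance model, the arrays in the fit, the dose scale and leaving out each array; leaving out 4 arrays by their β-actin ratio was chosen after seeing the data.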

Additional observations from a re-analysis of the deposited data

Results flagged for a closer look

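Of 28 groups of member values and ratios tested for a single array far from the others, 1 had one, where chance gives about 1 in 20. The log2 ratio of Nppa to Nppb on array 4 at 6 µg/kg was -0.68, and its gap to the next array was 0.855 of the range of the 4 arrays. The Nppb signal on that array was 8794 and its Nppa signal 5467. Its β-actin 3′ to middle log2 ratio was 1.02, above the 3 other arrays of the dose, while its β-actin 3′ to 5′ ratio of 0.281 and its GAPDH 3′ to middle ratio of -0.277 were the lowest of the 4.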

How the results depend on the processing

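None of the 5 member probe sets passed the limma test at any dose under any alternative, and the Myh6 change stayed negative at all 3 doses under each. At an unadjusted p under 0.05 the count at 1.5 µg/kg was 1 or 2, that at 6 µg/kg 0 or 1, that of the trend 0 or 1 and that of the joint test 0 to 2. Of the ratio differences, that of Myh6 to Myh7 at 1.5 µg/kg passed the test in 1 alternative. That of Nppa to Nppb at 6 µg/kg turned in 2, and no other ratio difference turned. Log2 changes and slopes of single probe sets turned in 34. Without 1 array in turn, the Myh6 to Myh7 difference at 1.5 µg/kg ran from -0.3934 to -0.1772 and passed without array 3 of that dose. The Nppa to Nppb difference at 6 µg/kg ran from -0.2129 to 0.0826, turning without array 4 of that dose, and was 0.049 with the 4 arrays highest in the β-actin ratio left out. All other turned values were log2 changes that passed no test. With quantile normalization bright Myh7 was at 0.0143 at 3 µg/kg, -0.0298 at 6 µg/kg and -0.0042 in the trend. With controls 5 to 8 Nppa was at 0.0462 at 1.5 µg/kg, 0.0592 at 6 µg/kg and 0.0094 in the trend. With controls 1 to 4 dim Myh7 was at -0.1251 and Nppa at -0.0942 at 3 µg/kg. With the β-actin ratio as a covariate Nppb was at 0.0249 at 3 µg/kg. In the TCDD arrays alone the trend was 0.0373 for Myh6 and 0.0006 for Nppa, while that of Nppb, 0.0724, kept its sign. With these 4 arrays left out Nppa was at 0.0206 at 1.5 µg/kg, 0.035 at 6 µg/kg and 0.0076 in the trend, dim Myh7 at 0.1095 at 6 µg/kg and 0.0105 in the trend, and Nppb at -0.014 at 6 µg/kg. Leaving out each array gave -0.028 to 0.1701 for bright Myh7 and -0.1077 to 0.0107 for Nppa at 1.5 µg/kg. It gave -0.0616 to 0.2717 for dim Myh7 and -0.0529 to 0.0306 for Nppa at 3 µg/kg. It gave -0.6378 to 0.041 for dim Myh7, -0.1004 to 0.0077 for Nppa and -0.1181 to 0.193 for Nppb at 6 µg/kg. In the trend it gave -0.0005 to 0.0151 for bright Myh7, -0.0914 to 0.0072 for dim Myh7, -0.0136 to 0.0022 for Nppa and -0.0185 to 0.0267 for Nppb. The cause was not tested.

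With the replicate block, 0 of 5 probe sets passed at each dose; dim Myh7 was at -0.1251 and Nppa at -0.0942 at 3 µg/kg. The deviations showed no pairing by number. Same-numbered arrays correlated at -0.222 to 0.21 over 24 pairs (median -0.009, against -0.003 for different-numbered arrays), and 5 of 16 arrays correlated best with their own number. This check cannot tell whether same-numbered arrays shared a litter or a run, which the labels do not say.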
